A study of Mus musculus with 12 samples.

Results

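Mouse cells that received NP-D@MP were set against cells that received PBS, the buffered saline used as vehicle, in a series that asks what biomimicking nanodrugs do to cells called TAMC. Each group had 3 libraries of total RNA, taken after 24 h. The NP-D@MP name holds every letter code used in the series, and the labels spell out neither NP, D, M and P nor TAMC, so what separates the 2 groups is the whole preparation and its components cannot be told apart within this comparison. NP@M and NP-D@M, with 3 libraries each, make up the rest of the 12 libraries. All genes with a deposited value of at least 1 in at least 3 of the 6 PBS and NP-D@MP libraries were included, which were 7766 of the 11669 genes in the table. The other 3903 genes were not tested. The labels give the tissue as marrow and the cell type as immune cells, and enter TAMC as a cell line, while the extraction text of the same records speaks of retinas. Nothing says whether the 3 libraries of a group came from separate cultures or animals, so what p-values measure here is the spread among the libraries, which may be technical.

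Myeloid cells of the marrow include neutrophils, monocytes and macrophages. They sense microbes and tissue damage through pattern receptors and chemoattractant receptors, which act through MAP kinases and NF-kB on fast-turnover messengers such as those of immediate early transcription factors, feedback phosphatases and cytokines. They also secrete chemokines that recruit other leukocytes, and macrophages in particular hold large stores of lysosomal hydrolases and ferritin.

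The markers of the labelled cells were in the data. The summed level of 17 monocyte and macrophage markers was 2479 to 3906 FPKM (fragments per kilobase of gene, scaled by a library size; the unit was read from the values) in the PBS libraries and 35796 to 38189 FPKM in the NP-D@MP libraries, and that of the 15 neutrophil and granulocyte precursor markers in the table was 2189 to 2572 and 5642 to 8163. Of 9 retina markers 1 was in the table, at most 0.143 FPKM in any of the 6 libraries. Recovered reads ran from 14444950 to 17338264 per library. The PBS libraries were not alike: replicate 3 had 9.31% of the table's genes at 0 against 2.8% and 2.65% in its group mates, and its log2 values correlated across genes with theirs at Pearson's r of 0.82 and 0.86, whereas the other pairs within the 2 groups were at 0.98 to 0.99. Results that rest on that library are given with and without it. NP-D@MP replicate 1 had the largest mitochondrial share of reads, 3.17% against 0.805% to 1.57% in the other 5.

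Several genes on which the account turns are shown here with the 100 bases before their start (RefSeq, GRCm38.p6, strand of the gene), because chemokine genes hold the same short motifs as an inhibitor gene and a receptor gene that went the other way. Capitals mark the TATA motif TATAAA and an NF-kB-type motif, written GGGA, any base, then TTTCC, each searched on both strands; in the Cxcr4 run the capitals join matches to TATAAA on both strands that overlap. The monocyte chemokine genes Ccl12 (chr11:82101745-82101844, plus strand) and Ccl8 (chr11:82115085-82115184, plus strand) hold TATAAA. The neutrophil chemokine genes Cxcl1 (chr5:90891145-90891244, plus strand), Cxcl2 (chr5:90903799-90903898, plus strand) and Cxcl3 (chr5:90786001-90786100, plus strand) hold the NF-kB-type motif, and Cxcl3 holds TATAAA as well. Nfkbia (chr12:55492648-55492747, minus strand), which encodes an inhibitor of NF-kB, and Cxcr4 (chr1:128592300-128592399, minus strand), a chemokine receptor gene, are shown for contrast.
Ccl12: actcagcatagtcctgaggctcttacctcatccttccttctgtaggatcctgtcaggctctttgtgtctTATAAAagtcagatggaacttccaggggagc
Ccl8: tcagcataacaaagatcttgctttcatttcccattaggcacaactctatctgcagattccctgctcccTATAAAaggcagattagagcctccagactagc
Cxcl1: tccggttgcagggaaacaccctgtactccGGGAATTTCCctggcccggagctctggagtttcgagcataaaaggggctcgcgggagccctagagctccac
Cxcl2: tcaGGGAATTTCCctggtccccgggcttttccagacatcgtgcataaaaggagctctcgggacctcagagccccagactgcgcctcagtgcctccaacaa
Cxcl3: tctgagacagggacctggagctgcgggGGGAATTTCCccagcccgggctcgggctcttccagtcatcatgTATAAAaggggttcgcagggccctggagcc
Nfkbia: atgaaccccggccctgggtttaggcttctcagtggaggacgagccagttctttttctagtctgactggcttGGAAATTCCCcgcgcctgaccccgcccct
Cxcr4: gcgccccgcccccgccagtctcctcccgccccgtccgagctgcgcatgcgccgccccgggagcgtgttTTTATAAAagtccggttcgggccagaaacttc
The NF-kB-type motif was in 22 of the 5666 promoters of tested protein-coding genes (250 bases before to 50 after the start), a share of 0.388%, and TATAAA was in 6.94%. A match says only that these letters stand in the window. Of the 22 genes, 8 were called higher and 13 lower with NP-D@MP on the deposited values, and 3 higher and 14 lower after the totals were made equal. Genes with this motif thus went both ways. So did all tested genes, with 48% higher and 44.5% lower, then 9.8% and 61.8% with equal totals. Cxcl1, Cxcl2, Cxcl3 and B2m, the light chain of MHC class I, were among the 8. Among the 13 were Nfkbia, the cytokine gene Il6, Cyld, which removes ubiquitin chains from NF-kB activators, and Trp53, the p53 gene. These genes were picked out after their values were seen.

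The direction of many genes hung on the scale. In the deposited values, 1 read was worth far more in NP-D@MP libraries than in PBS libraries: the library size that the values imply was 2.19 to 2.36 times the recovered reads with PBS and 0.468 to 0.504 times with NP-D@MP. Every gene was therefore read on the deposited scale and again with the totals of value times gene length made equal between libraries. With limma (adjusted p under 0.05), 3727 genes (48% of those tested) were called higher and 3456 (44.5%) lower on the deposited values. With equal totals 761 (9.8%) were called higher and 4803 (61.8%) lower. The median log2 fold change of all tested genes moved from 0.42 to -1.44, a shift of -1.86. Over the 7101 protein-coding genes tested, the medians were -0.36 and -1.78. Of these, 3178 were called higher and 3403 lower on the deposited values, and 642 and 4696 with equal totals. Groups of libraries did not overlap for 3662 genes higher (47.2%) and 3407 lower (43.9%) on the deposited values, and for 885 (11.4%) and 4830 (62.2%) with equal totals. Quantile normalization gave 2727 higher and 2666 lower. Without PBS replicate 3 the counts were 3634 and 3448 on the deposited values, and 661 and 5019 with equal totals.

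Beside these counts stand measures that moved with the groups. The 10 genes with most reads took 11.5% to 11.7% of reads with PBS and 33.8% to 35.4% with NP-D@MP. Fth1, which encodes the heavy chain of the iron store ferritin, alone took 1.62% to 3.45% and 8.77% to 9.78%. The rule by which the table's genes were selected is not given in the sources used here. Only 161 tested genes had a log2 fold change between -0.3 and 0.3 on the deposited values, and calls hold within the table only. In bulk libraries, fewer cells of a type and less RNA per cell cannot be told apart.

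Over both scalings the genes fell into 5 classes and a remainder. Called lower under both were 3456 genes and called higher under both were 761. Another 2104 were higher on the deposited values only, 862 were higher on the deposited values but lower with equal totals, and 485 were lower with equal totals only. The remaining 98 were called under neither. A gene of the first 2 classes had the same direction on both of these scales, and the account below leads with those. Equal totals move NP-D@MP against PBS by -2.24 on the log2 scale before the pseudocount. All 3456 genes called lower on the deposited values were therefore lower with equal totals too. Likewise, all 761 called higher with equal totals were higher on the deposited values. Agreement of the 2 scales in these directions is thus no independent support.

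**Figure D1:**
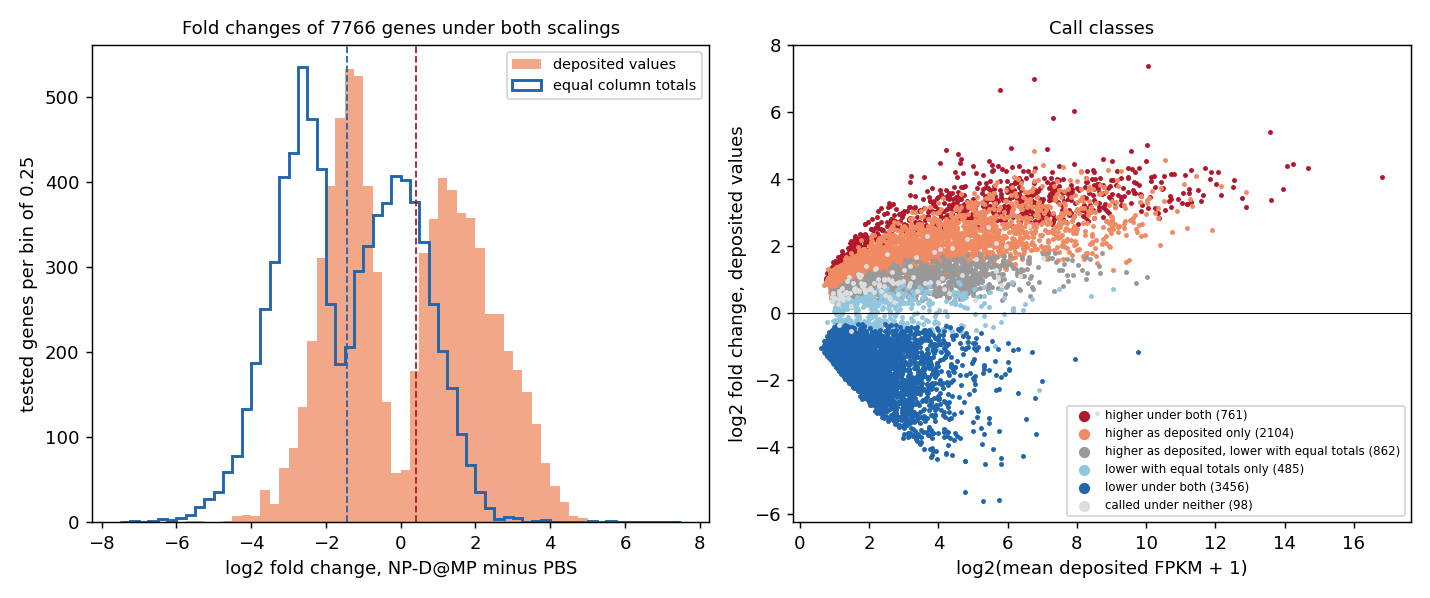
Left, number of tested genes per bin of log2 fold change (NP-D@MP minus PBS) on deposited values (filled) and with equal column totals (outline), with dashed lines at the medians of 0.42 and -1.44. Right, log2 fold change on deposited values against log2 of the mean FPKM plus 1, 1 point per gene, coloured by call class: few genes lie near 0 on deposited values, and the median moves down by 1.86 with equal totals.

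Ranked by the change on the deposited values, the genes with a descriptive symbol that rose under both scalings and had a mean of at least 5 FPKM were led by a small nuclear RNA, a monocyte chemokine, a neuropeptide and a platelet chemokine. Leading genes in either direction were also required to have groups without overlap under both scalings, so their separation was fixed by the choice. Rn7sk, the 7SK RNA that holds the elongation kinase P-TEFb inactive (chr9:78175303-78175633), stood at 0.527, 0 and 1.15 FPKM in PBS replicates 1 to 3 and at 89.1, 305 and 243 FPKM in NP-D@MP replicates 1 to 3. No NP-D@MP library came near the PBS range, although they differed among themselves. The log2 fold change was 6.99 ± 0.46 (SE, adjusted p = 2.11e-07, limma) on the deposited values and 5.54 ± 0.54 (adjusted p = 2.76e-06) with equal totals. Its PBS libraries held 6, 0 and 12 reads, so the fitted fold change depends on the pseudocount of 1 FPKM.

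Ccl12, a CCR2 ligand that attracts monocytes (chr11:82101845-82103400), had 8.66, 6.74 and 4 FPKM with PBS and 509, 526 and 377 FPKM with NP-D@MP. All 3 treated libraries were above all 3 vehicle libraries by more than an order of magnitude. Its change on the log2 scale was 6.02 ± 0.41 (adjusted p = 2.45e-07) on the deposited values and 3.91 ± 0.46 (adjusted p = 1.34e-05) with equal totals. Npy, the gene of neuropeptide Y (chr6:49822710-49829507), went from 7.45, 7.92 and 1.12 FPKM to 318, 289 and 313 FPKM, with PBS replicate 3 lowest. Its log2 fold changes of 5.82 and 3.80 became 5.15 and 2.98 without that library. Pf4, which encodes the platelet chemokine CXCL4, was already abundant, at 951, 854 and 229 FPKM, and reached 24699, 23349.5 and 23569 FPKM. The 3 treated libraries lay close together and the log2 fold changes were 5.38 (SE 0.55) and 3.15 (SE 0.58), or 4.73 and 2.46 without PBS replicate 3.

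The other 6 leading genes that rose were Rnase2a, an eosinophil-type ribonuclease, Fabp5, a fatty acid binding protein, Mgl2, a lectin of alternatively activated macrophages, the small nucleolar RNA Snora17, the mitochondrial tRNA gene mt-Ty and the ribosomal protein gene Rpl37a. Mgl2 had 64, 52.7 and 36.5 FPKM with PBS and 1346, 1518 and 1508 FPKM with NP-D@MP, which do not overlap, and log2 fold changes of 4.84 ± 0.22 and 2.62 ± 0.22 (adjusted p = 6.83e-08 and 7.93e-07). Fabp5 rose from 11.6, 9.92 and 4.48 FPKM to 215, 272 and 333 FPKM and Rnase2a from 5.01, 3.16 and 1.7 FPKM to 205, 119.7 and 73.9 FPKM. Over the 6 genes the log2 fold changes ran from 4.58 to 4.92 on the deposited values and from 2.38 to 3.63 with equal totals. PBS replicate 3 was the lowest vehicle library for Ccl12, Rnase2a, Fabp5, Mgl2, mt-Ty and Rpl37a too. Without it the log2 fold changes were 5.75 and 3.59 for Ccl12, 4.62 and 2.54 for Rnase2a, 4.52 and 2.33 for Fabp5, 4.62 and 2.37 for Mgl2, and 4.08 and 2.22 for mt-Ty, all still called. The value of Rpl37a moved most: with equal totals it was 2.38 over all libraries and 1.5 without PBS replicate 3. Snora17 was at 0, 0.397 and 0 FPKM with PBS and at 5.2, 54.9 and 76.1 FPKM with NP-D@MP, where replicate 1 was far below the other two; the PBS libraries held 0, 2 and 0 reads, so its fitted fold change is set by the pseudocount.

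The genes that fell furthest on the deposited values included a kinase, a chemoattractant receptor and a feedback phosphatase. Sgk1, a kinase induced by serum and glucocorticoids (chr10:21882184-21999903), had 45.2, 53.4 and 130.3 FPKM with PBS and 0.21, 0.426 and 0.648 FPKM with NP-D@MP. Every treated library was under 1 FPKM, and PBS replicate 3 was the highest. The log2 fold change was -5.61 ± 0.36 (adjusted p = 1.93e-07) on the deposited values and -7.03 ± 0.34 (adjusted p = 1.31e-08) with equal totals, or -5.14 and -6.59 without PBS replicate 3. Fpr1, the receptor for formylated bacterial peptides (chr17:17876471-17883940), went from 64.4, 85.2 and 165 FPKM to 1.47, 0.834 and 0.864 FPKM. Dusp6, a phosphatase that switches off ERK (chr10:99263231-99267489), went from 45.9, 45.6 and 64.8 FPKM to 0.0365, 0.431 and 0.406 FPKM. Neither pair of groups overlaps, and the log2 fold changes were -5.59 ± 0.32 and -5.36 ± 0.21 on the deposited values (adjusted p = 9.48e-08 and 6.72e-08) and -7.21 and -6.71 with equal totals.

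Of the remaining 7 leading genes that fell, Hilpda encodes a hypoxia-induced lipid droplet protein, Tlr2 encodes a receptor for bacterial lipoproteins, Bhlhe40 and Id2 encode helix-loop-helix regulators, Mcl1 encodes a short-lived survival protein, and Tor4a and Slfn2 encode a torsin-family ATPase and a Schlafen protein. Mcl1 had 95, 97.2 and 125 FPKM with PBS and 4.28, 3.38 and 5.21 FPKM with NP-D@MP. The groups lie far apart, and the log2 fold changes were -4.34 ± 0.19 (adjusted p = 6.83e-08) and -6.30 ± 0.17 (adjusted p = 1.71e-09). Slfn2 fell from 163, 154 and 172 FPKM to 5.5, 8.7 and 8.63 FPKM. The 7 genes lay between -4.52 and -4.27 on the deposited values and between -6.46 and -5.78 with equal totals. No call among the 10 ended when any single library was left out.

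**Figure D2:**
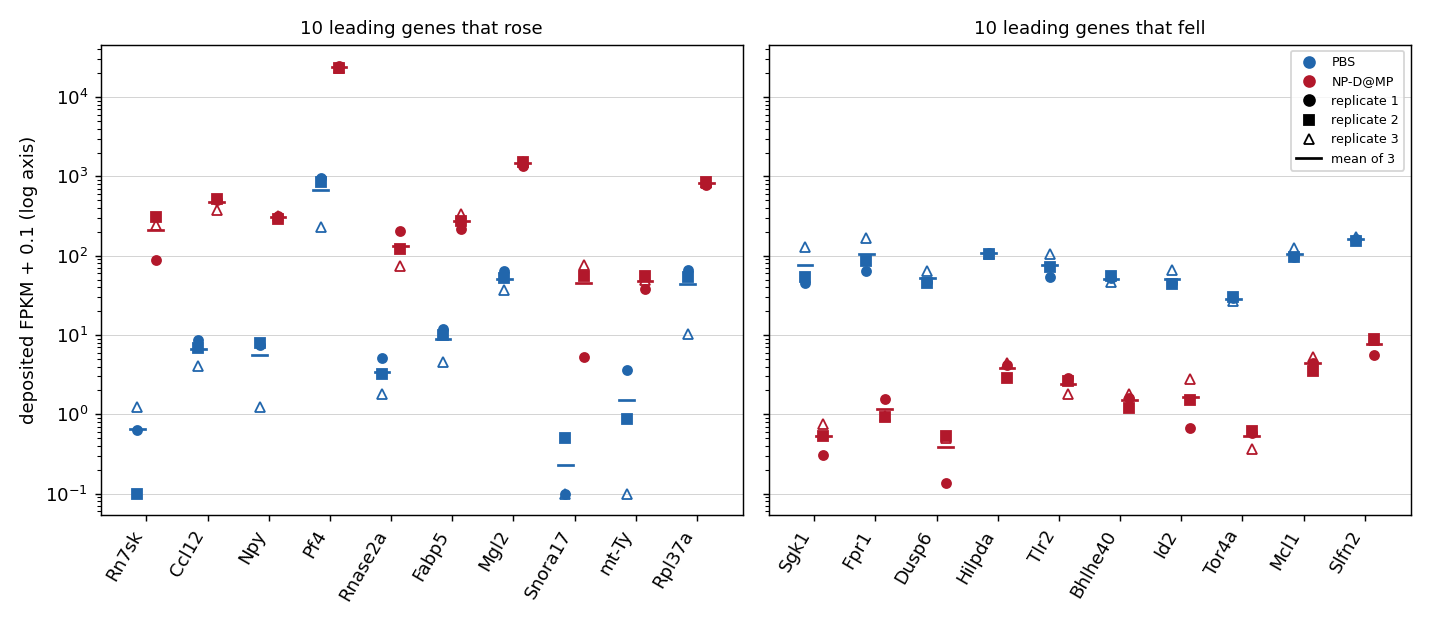
Deposited FPKM plus 0.1 (log axis) in each PBS library (blue) and each NP-D@MP library (red) for the 10 leading genes in each direction; symbols give the replicate and bars the mean of 3. The groups are apart for all 20 genes because the choice of genes required it. Pf4 is the most abundant of the genes that rose, and PBS replicate 3 is the lowest PBS library for 8 of the 10 genes that rose, all but Rn7sk and Snora17.

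Abundant genes of the class that turned with the scale show what that turn looks like. S100a9, a calcium-binding alarmin of neutrophils, had 792, 583 and 594 FPKM with PBS and 1139, 1881 and 1209 FPKM with NP-D@MP, a log2 fold change of 1.08 (adjusted p = 0.0151) on the deposited values and of -1.16 (adjusted p = 0.017) with equal totals. Both of its calls were lost when 1 library was left out, at 0.85 (adjusted p = 0.0651) without NP-D@MP replicate 2 on the deposited values, and with equal totals at -1.0 (adjusted p = 0.0576) without PBS replicate 1, -1.05 (adjusted p = 0.0554) without NP-D@MP replicate 1 and -1.04 (adjusted p = 0.0583) without NP-D@MP replicate 3. Actg1, a cytoskeletal actin, moved from 0.89 to -1.34, Cd14, a lipopolysaccharide co-receptor, from 1.23 to -1.0, C3, a complement component, from 1.18 to -1.05, and Rab7, a late endosome GTPase, from 1.77 to -0.46. No direction can be given for these 5 apart from a scale. The Rab7 call with equal totals ended without NP-D@MP replicate 3 (-0.42, adjusted p = 0.0563).

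Most chemokine ligands were higher and most chemoattractant receptors lower. Of 12 CC chemokines tested, 11 were called higher on the deposited values and 7 higher and 1 lower with equal totals, with median log2 fold changes of 3.35 and 1.13 against 0.42 and -1.44 over all tested genes. Protein-coding genes alone had medians of -0.36 and -1.78. Of 8 CXC chemokines, 8 were higher on the deposited values and 3 higher and 1 lower with equal totals, with medians of 3.02 and 0.79. Of 20 chemoattractant and pattern receptors, 15 were lower and 3 higher on the deposited values and 18 lower and 1 higher with equal totals, with medians of -2.71 and -4.26. Without PBS replicate 3 the CC ligands were again 11, 7 and 1, the CXC ligands 8, 2 and 1, and the receptors 15 and 3, then 18 and 1.

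Ccl2, Ccl8, Ccl9, Ccl12 and Ppbp were among the ligands that rose under both scalings. Ccl2, the main ligand of CCR2, had 187, 187 and 148 FPKM with PBS and 2509, 2868 and 2397 FPKM with NP-D@MP. The groups do not overlap, and its log2 fold change was 3.89 ± 0.23 (adjusted p = 1.2e-07) on the deposited values and 1.66 ± 0.23 (adjusted p = 4.99e-05) with equal totals. Ccl8, a neighbour of Ccl12 on chromosome 11, rose from 1.59, 1.49 and 2.1 FPKM to 46.8, 40.6 and 58 FPKM, with log2 fold changes of 4.17 and 2.30. Ccl9, a myeloid CC chemokine, rose from 811, 682 and 691 FPKM to 6281, 10451 and 8480.5 FPKM (3.50 and 1.27), and Ppbp, the precursor of the platelet chemokine CXCL7, from 256, 239 and 289 FPKM to 3954, 2987 and 2158 FPKM (3.49 and 1.26). These 4 and Ccl12 share an increase that equal totals reduce and do not remove.

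The neutrophil attractants depended more on the scale. Cxcl1, whose promoter is printed above, had 16.5, 21.5 and 6.14 FPKM with PBS and 40.2, 75.5 and 68.4 FPKM with NP-D@MP, a log2 fold change of 2.09 (adjusted p = 0.000661) on the deposited values and -0.05 (adjusted p = 0.925) with equal totals. Cxcl3 had 312, 308 and 125 FPKM and 1679, 1688 and 2012 FPKM, with 2.96 (adjusted p = 1.08e-05) and 0.72 (adjusted p = 0.0923), the latter called at 0.96 (adjusted p = 0.0445) without PBS replicate 1 and at 0.95 (adjusted p = 0.05 after rounding) without PBS replicate 2. Cxcl2 had 89.7, 106 and 51.2 FPKM and 503, 607 and 1004 FPKM, with 3.08 and 0.86, and its equal-totals call ended without PBS replicate 3 (0.52, adjusted p = 0.152), NP-D@MP replicate 2 (0.93, adjusted p = 0.0637) or NP-D@MP replicate 3 (0.60, adjusted p = 0.167), and without NP@M replicate 1 or 3 or NP-D@M replicate 2, which leave the value as it is (adjusted p = 0.0536 to 0.0578). So all 3 were higher on the deposited scale, and with equal totals none had a call that lasted. Ccl4, an inflammatory ligand of macrophages, was the CC chemokine not called higher: 92.8, 96.2 and 13.8 FPKM with PBS, where replicate 3 was far below its mates, and 46.6, 55.6 and 44.1 FPKM with NP-D@MP. Its log2 fold change was -0.05 (adjusted p = 0.953) on the deposited values and -2.23 (adjusted p = 0.0471) with equal totals, a value that became -3.18 (adjusted p = 0.00453) without PBS replicate 3. That call ended without PBS replicate 1 (-1.78, adjusted p = 0.141) or 2 (-1.75, adjusted p = 0.151), without any of the 3 NP-D@MP libraries (-2.33 to -2.14, adjusted p = 0.0814 to 0.106) and without NP@M replicate 1 or 3 or NP-D@M replicate 3 (adjusted p = 0.055 to 0.0611).

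Of the 20 receptors, most fell under both scalings. Cxcr4, which retains cells in the marrow, had 16.9, 19.7 and 40.8 FPKM with PBS and 0.0633, 0.475 and 0.422 FPKM with NP-D@MP. It had a log2 fold change of -4.25 ± 0.32 (adjusted p = 4.82e-07) on the deposited values and -5.60 ± 0.29 (adjusted p = 1.89e-08) with equal totals. The PBS and NP-D@MP libraries are more than an order of magnitude apart. Ptafr, the receptor for platelet-activating factor, fell from 29, 34.7 and 39.7 FPKM to 1.45, 0.506 and 0.839 FPKM, and Ccr1, a receptor for CCL3 and CCL9, from 71.3, 73.5 and 152 FPKM to 7.67, 8.92 and 5.07 FPKM. Cxcr2, the receptor for CXCL1 and CXCL2, fell from 11.1, 11.6 and 32.5 FPKM to 0.113, 0.926 and 0.0417 FPKM. PBS replicate 3 was the highest vehicle library for these 4, and without it the log2 fold changes ran from -4.11 for Ptafr to -3.19 for Ccr1 on the deposited values. Fpr1 and Tlr2, described above, belong to this list too. The exceptions were Cx3cr1, the fractalkine receptor, which had 0, 1 and 0 reads with PBS and was higher under both scalings, Clec7a, the β-glucan receptor, which was higher on the deposited values only, and Cd14, which turned. Cx3cr1 passed the filter through the NP-D@MP libraries alone, where it had 1.27, 2.15 and 2.26 FPKM, so its direction was favoured by the filter. Ltb4r1, a leukotriene B4 receptor, and Clec4e, the receptor Mincle, were not called on the deposited values and were lower with equal totals.

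**Figure D3:**
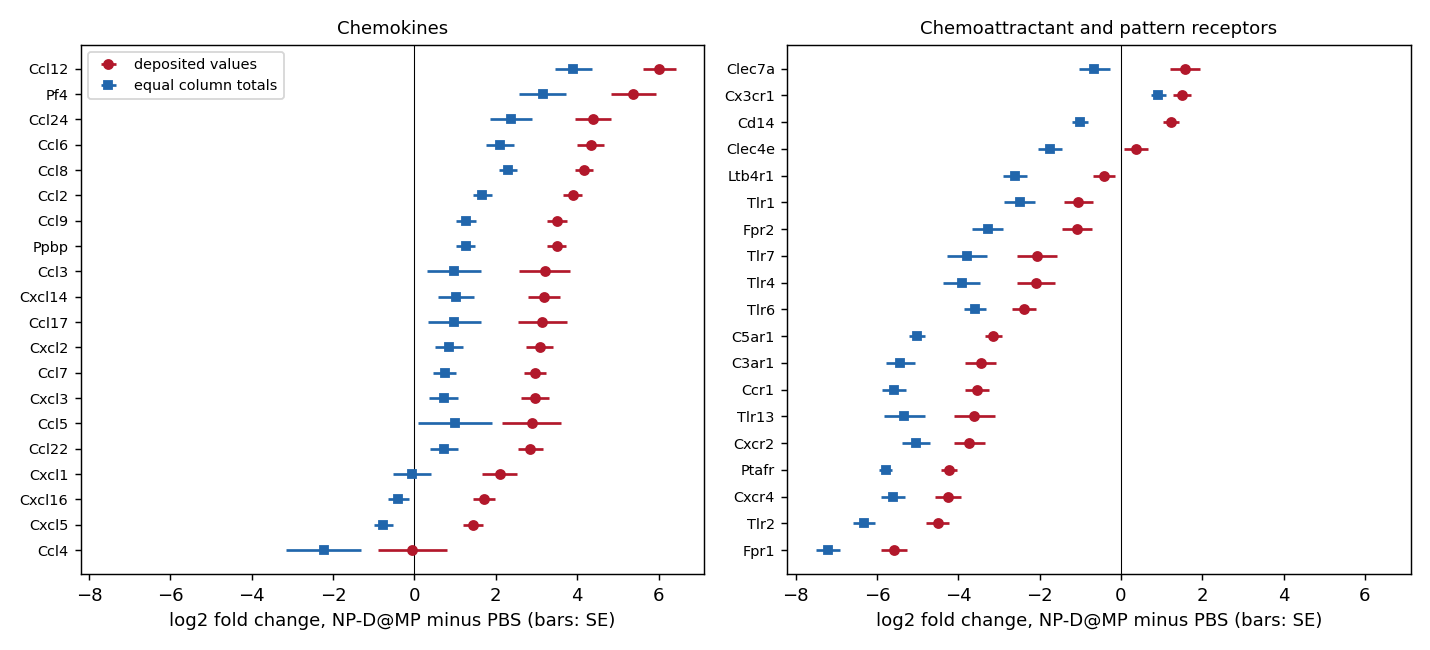
Log2 fold change (NP-D@MP minus PBS, bars are the SE) of each tested chemokine (left) and of 19 tested chemoattractant and pattern receptors (right), on deposited values (circles) and with equal column totals (squares). Of the 20 chemokines only Ccl4 lies at or below 0 on deposited values, while 15 of the 19 receptors lie below 0 on deposited values and 18 with equal totals.

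Feedback phosphatases, NF-kB genes and most immediate early factors were lower. Over all tested genes 44.5% were lower and 48% higher on the deposited values, and 61.8% and 9.8% with equal totals. All 6 MAP kinase phosphatases of the Dusp family that were tested and all 16 NF-kB subunits and feedback inhibitors were called lower under both scalings, with medians of -2.40 and -3.90 for the first and -2.08 and -3.75 for the second, and they were called without PBS replicate 3 as well. Of 18 immediate early transcription factors, 13 were lower and 3 higher on the deposited values, and 15 lower and 0 higher with equal totals (medians -1.80 and -3.28). The 3 were Jun, Junb and Ier3, and without PBS replicate 3 it was 2 higher and 14 lower.

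Fos, a subunit of AP-1, had 52.3, 58.8 and 73 FPKM with PBS and 4.28, 5.74 and 9.35 FPKM with NP-D@MP. The change was -3.11 ± 0.27 (adjusted p = 1.33e-06) on the deposited values and -5.13 ± 0.25 (adjusted p = 1.35e-08) with equal totals. Klf6 and Egr2, zinc finger factors, and Fosl2, another AP-1 subunit, fell further, with -4.12, -3.30 and -3.34 on the deposited values and -5.60, -4.88 and -4.76 with equal totals. Myc, a growth regulator with a short-lived messenger, had 16.3, 14.2 and 4.89 FPKM with PBS and 0.168, 0.0903 and 0.515 FPKM with NP-D@MP, and its log2 fold change of -3.21 was -3.70 without PBS replicate 3. All treated libraries were under 1 FPKM for Myc.

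Among the phosphatases, Dusp5 fell from 28.1, 25.8 and 21.6 FPKM to 0.416, 0.943 and 1.75 FPKM, Dusp4 from 11.8, 15.5 and 15.9 FPKM to 0.334, 1.25 and 2.46 FPKM and Dusp1, which acts on p38 and JNK, from 12.3, 13.3 and 9.69 FPKM to 3.05, 2.55 and 4.85 FPKM. Dusp1 fell least of these, by 1.53 on the log2 scale of the deposited values (adjusted p = 0.000217). Nfkbia, the IkBα gene, had 72.2, 71.1 and 55.8 FPKM with PBS and 13.4, 18.1 and 29.9 FPKM with NP-D@MP, with a log2 fold change of -1.71 ± 0.28 (adjusted p = 0.000151) on the deposited values and -3.86 ± 0.28 (adjusted p = 2.54e-07) with equal totals. Tnfaip3, the A20 feedback enzyme, went from 8.03, 11.2 and 22.1 FPKM to 0.285, 0.136 and 0.422 FPKM. Nfkb1, the p105 subunit, and Birc3, an inhibitor of apoptosis that NF-kB induces, went by -1.98 and -2.59 on the deposited values and by -3.65 and -4.16 with equal totals. The neutrophil chemokines with an NF-kB-type motif before their start thus stood higher on the deposited values while Nfkbia, which holds the same letters on the other strand, stood lower on both scales.

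The stress response genes went both ways, as did all tested genes (44.5% lower and 48% higher, then 61.8% and 9.8% with equal totals). Of 17 genes of the integrated stress and unfolded protein responses, 10 were lower and 7 higher on the deposited values, and 11 lower and 4 higher with equal totals (medians -1.46 and -3.17). The lower ones included transcription factors and some of their targets. Xbp1, the factor spliced by IRE1, had 107, 86.2 and 77 FPKM with PBS and 4.37, 4.04 and 4.66 FPKM with NP-D@MP, with log2 fold changes of -4.08 ± 0.17 (adjusted p = 6.83e-08) and -6.04 ± 0.17 (adjusted p = 1.71e-09). Atf4, the central factor of the integrated stress response, went from 110.5, 101 and 27.1 FPKM to 4.66, 7.08 and 9.06 FPKM, and its targets Trib3 and Sesn2 changed by -4.24 and -3.92 on the deposited values. PBS replicate 3 was the lowest vehicle library for these 3, and without it they changed by -3.79, -4.99 and -4.24. Herpud1, of endoplasmic reticulum degradation, fell by 3.66.

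The 4 genes that rose under both scalings encode chaperones and folding enzymes of the endoplasmic reticulum. Pdia4, a disulfide isomerase, had 74.9, 74.1 and 94 FPKM with PBS and 823, 983 and 887 FPKM with NP-D@MP, with log2 fold changes of 3.46 ± 0.22 (adjusted p = 1.54e-07) and 1.23 ± 0.19 (adjusted p = 0.000131). Creld2 rose from 15.1, 12.2 and 9.45 FPKM to 113, 140.1 and 165 FPKM and Hyou1, a large chaperone, from 13.8, 14.6 and 17.7 FPKM to 129, 104 and 134 FPKM. The other was Sdf2l1. Hspa5, the chaperone BiP, had 63.2, 72.3 and 89.5 FPKM and 249.9, 236 and 209 FPKM, and turned from 1.63 to -0.59 with the scale. Its equal-totals call ended without NP-D@MP replicate 3 (-0.50, adjusted p = 0.0515).

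Macrophage genes were mostly higher. Of 16 monocyte and macrophage markers tested, 15 were called higher and 1 lower on the deposited values, and 9 higher and 2 lower with equal totals (medians 3.03 and 0.89), or 10 higher and 2 lower without PBS replicate 3. Lyz2, the myeloid lysozyme, had 2055, 1812 and 3138 FPKM with PBS and 28146, 29384 and 30842 FPKM with NP-D@MP. The groups are far apart, and the log2 fold change was 3.70 ± 0.24 (adjusted p = 1.88e-07) on the deposited values and 1.46 ± 0.21 (adjusted p = 6.67e-05) with equal totals, but -0.03 after quantile normalization, which gives the most abundant genes of every library the same levels. C1qb, a chain of complement C1q, rose from 1.63, 1.33 and 1.02 FPKM to 39.3, 43.4 and 41.9 FPKM (4.20 and 2.41), and Ms4a7 from 2.22, 2.14 and 3 FPKM to 40.1, 56.8 and 41.4 FPKM (3.76 and 1.82). Csf1r, the growth factor receptor of macrophages, turned from 0.90 to -1.32.

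Neutrophil markers gave other counts than macrophage markers. Of 15 tested, 7 were higher and 3 lower on the deposited values, and 0 higher and 11 lower with equal totals. Over all tested genes 48% were higher and 44.5% lower, then 9.8% and 61.8% with equal totals. The count higher on the deposited values is thus close to the share over all tested genes. Medians were 0.72 and -1.49, against 0.42 and -1.44 over all genes and -0.36 and -1.78 over protein-coding genes. With equal totals their summed level was 5157 to 5829 with PBS and 2640.4 to 4022 with NP-D@MP, while that of the macrophage markers was 5840.4 to 8551 and 17732 to 18052. Mmp8, neutrophil collagenase, had 487, 539 and 1145 FPKM with PBS and 4916, 4076 and 2846 FPKM with NP-D@MP (2.52 and 0.29, the second with an adjusted p of 0.464, and -0.83 after quantile normalization). Mmp9, a gelatinase, turned from 1.02 to -1.21. Other members of the list went down. Cxcr2, described above, changed by -3.72 and -5.04, the lowest values of the list. Ctsg had 6.19, 4.42 and 3.25 FPKM with PBS and 0.775, 1.9 and 0.861 FPKM with NP-D@MP. Cebpe had 48.2, 33.1 and 2.27 FPKM and 1.84, 1.09 and 3.48 FPKM, with PBS replicate 3 far below its mates. Platelet markers also rose on the deposited values, 6 of 6 tested on the deposited values, and 4 were higher and 1 (Itga2b) lower with equal totals, led by Pf4 and Ppbp, which are chemokines as well. Erythroid markers were not in the table, and the T and NK, B, epithelial and stromal lists had 1 tested gene each, with summed levels of at most 32.9 FPKM in any library. Summed platelet markers were 529.7 to 1216 FPKM with PBS and 25794 to 28735 FPKM with NP-D@MP. The part of a changed mix of cells in these results was not tested.

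Most lysosomal genes rose. Of 30 tested, 28 were called higher and 2 lower on the deposited values, and 18 higher and 4 lower with equal totals, with medians of 3.29 and 1.06. Without PBS replicate 3, 21 were higher and 3 lower with equal totals. Ctsb, the protease cathepsin B, had 382, 415 and 552 FPKM with PBS and 8831, 7395 and 8492 FPKM with NP-D@MP, and log2 fold changes of 4.21 ± 0.20 (adjusted p = 6.83e-08) and 1.97 ± 0.18 (adjusted p = 1.21e-06). Lgmn, the protease legumain, rose from 77.4, 72 and 105 FPKM to 1933, 1795 and 2107 FPKM (4.52 and 2.29) and Hexa, a hexosaminidase subunit, from 207, 186 and 208 FPKM to 2436, 2435 and 3044 FPKM (3.71 and 1.47). Ctsd, cathepsin D, was at 37599, 33312 and 39886 FPKM with NP-D@MP. The 2 lower genes were the proton pump subunit Atp6v1b2 and Tfeb, the transcription factor that drives lysosomal genes, which went from 4.59, 3.83 and 1.82 FPKM to 0.323, 0.152 and 0.202 FPKM (-1.79 and -2.91). The factor and most of the enzymes were thus called in opposite directions on the deposited values.

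Genes of antigen presentation by MHC class I were mostly higher. Of 14 genes tested, 13 were higher on the deposited values and 7 higher and 1 lower with equal totals (medians 3.07 and 0.85); without PBS replicate 3 it was 7 and 3. H2-K1, a heavy chain, had 19.6, 17.6 and 22.3 FPKM with PBS and 253, 239 and 329 FPKM with NP-D@MP, with log2 fold changes of 3.71 ± 0.24 (adjusted p = 1.63e-07) and 1.52 ± 0.22 (adjusted p = 6.9e-05). B2m went from 423, 399.9 and 179 FPKM to 8047, 5596 and 5369 FPKM and Calr, the chaperone calreticulin, from 174, 156 and 178 FPKM to 2309, 2181 and 2405 FPKM. The groups do not overlap for any of these 3 genes. Class I heavy chain genes have close copies, among which the counting could split reads.

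Of 19 genes of alternatively activated macrophages, 14 were higher and 5 lower on the deposited values and 9 higher and 5 lower with equal totals (medians 3.24 and 1.00). Clec10a, a galactose lectin related to Mgl2, had 12.2, 8.83 and 5.92 FPKM with PBS and 199.6, 165 and 184 FPKM with NP-D@MP (4.25 and 2.11), and Gpnmb, a glycoprotein of lipid-laden macrophages, 358, 385 and 567 FPKM and 8174, 5662 and 7068 FPKM (4.01 and 1.77). The 5 lower ones were Il4ra, Stat6, Pparg, Irf4 and Pdcd1lg2, that is the interleukin 4 receptor, 3 transcription factors of the programme and a PD-1 ligand. Il4ra went from 20.8, 21.2 and 9.5 FPKM to 3.18, 1.72 and 2.03 FPKM (-2.40 and -4.18) and Stat6 from 34.7, 35.2 and 29.5 FPKM to 9.04, 8.39 and 9.47 FPKM (-1.77 and -3.84). PBS replicate 3 was the lowest vehicle library for both.

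Checkpoint ligands did not move one way. Of 15 tested, 7 were higher and 7 lower on the deposited values, and 0 higher and 12 lower with equal totals. All tested genes were divided much the same on the deposited values, 48% higher and 44.5% lower, and were 9.8% and 61.8% with equal totals. Cd274, which encodes PD-L1, had 59.2, 74.3 and 121 FPKM with PBS and 41.3, 41.5 and 45.2 FPKM with NP-D@MP. The treated libraries lie close together and below all 3 vehicle libraries, of which replicate 3 is the highest. PD-L1 messenger had a log2 fold change of -0.91 ± 0.26 (adjusted p = 0.00649) on the deposited values and -3.10 ± 0.25 (adjusted p = 4.26e-07) with equal totals, or -0.63 (adjusted p = 0.0183) and -2.85 without PBS replicate 3. Pdcd1lg2, which encodes PD-L2, went from 6.86, 6.57 and 5.42 FPKM to 0.973, 1.64 and 0.695 FPKM (-1.81 and -3.33). Sirpa, the receptor for the signal CD47, fell from 119, 135 and 142 FPKM to 27.3, 21.6 and 23.7 FPKM (-2.40 and -4.57), while Lgals9, galectin 9, was higher on the deposited values only (1.95, and -0.25 with an adjusted p of 0.271).

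Cytokine genes and interferon-stimulated genes were mixed on the deposited values, as were all tested genes (48% higher and 44.5% lower, then 9.8% and 61.8% with equal totals). Of 15 cytokines and mediators, 5 were higher and 7 lower, and with equal totals 0 higher and 10 lower. Il1a, interleukin 1α, had 32, 56.8 and 42.7 FPKM with PBS and 3.77, 7.09 and 3.67 FPKM with NP-D@MP (-2.95 and -4.92), and Vegfa, an angiogenic factor, 26.5, 24.3 and 26.5 FPKM and 3.15, 3.04 and 5.7 FPKM (-2.47 and -4.39). Il1rn, the antagonist of the interleukin 1 receptor, had 133, 153 and 206 FPKM and 606, 784 and 631 FPKM, and was higher on the deposited values only (2.04, and -0.19 with an adjusted p of 0.395). Of 20 interferon-stimulated genes, 7 were higher and 10 lower, and with equal totals 3 higher and 13 lower. Irf7, a factor that amplifies interferon, rose from 17.5, 15.4 and 30.6 FPKM to 252, 263 and 330.1 FPKM (3.72 and 1.53), and Bst2, the virus tether, from 44.4, 38.4 and 22.8 FPKM to 441, 532 and 757 FPKM (4.01 and 1.80). Irf1 and Isg15 fell, by 1.99 and 1.94 on the deposited log2 scale, and the corepressor gene Irf2bp2 by 2.70.

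Survival and cell cycle regulators were more often lower than higher. For comparison, 44.5% of all tested genes were lower and 48% higher on the deposited values, and 61.8% and 9.8% with equal totals. Of 11 BCL2 family genes, 6 were lower and 4 higher on the deposited values and 8 lower and 1 higher with equal totals, not far from those shares. Beside Mcl1, Bcl2l1, which encodes the survival protein BCL-XL, went from 19.1, 18.7 and 9.82 FPKM to 1.17, 0.616 and 1.58 FPKM (-2.96 and -4.55). Bmf, which encodes a death-promoting BH3 protein, also fell, from 4.84, 3.82 and 2.88 FPKM to 0, 0.0234 and 0.0484 FPKM (-2.22 and -3.26), so the genes that fell include both survival and death proteins. Bcl2l2, which encodes the survival protein BCL-W, had 3.28, 3.44 and 1.75 FPKM with PBS and 16.6, 20 and 27.1 FPKM with NP-D@MP (2.54 and 0.62); its equal-totals call ended without PBS replicate 3 (0.32, adjusted p = 0.154) and without NP-D@MP replicate 2 (0.64, adjusted p = 0.0795) or 3 (0.47, adjusted p = 0.161), NP@M replicate 1 or 3, or any of the 3 NP-D@M libraries (adjusted p = 0.0551 to 0.0608).

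Of 16 p53 target genes, 12 were lower and 2 higher on the deposited values and 14 lower with equal totals. Cdkn1a, the inhibitor p21, had 82.3, 69.3 and 29.1 FPKM with PBS and 6.95, 6.46 and 6.8 FPKM with NP-D@MP. All 3 treated libraries lie close together and far below the lowest vehicle library, replicate 3, and the log2 fold change was -2.86 ± 0.36 (adjusted p = 2.19e-05) and -4.89 ± 0.39 (adjusted p = 5.48e-07). Btg2, an antiproliferative gene, fell from 20.4, 17 and 13.1 FPKM to 0.375, 0.805 and 1.44 FPKM. Of 16 cell cycle CDKs, cyclins and inhibitors, 10 were lower and 6 higher, and 13 lower and 0 higher with equal totals. Cdkn1b, the inhibitor p27, went from 4.7, 4.07 and 3.32 FPKM to 0, 0.243 and 0.112 FPKM. Cdkn2b, the inhibitor p15, was at 2.09, 1.62 and 1.82 FPKM with PBS and had 0 reads in every NP-D@MP library, which makes it at least 7.04-fold lower on the deposited values and at least 33.2-fold lower with equal totals, taking 3 reads per library as the floor. Cdk1, the mitotic kinase, had 2.62, 2.12 and 1.74 FPKM and 3.69, 4.83 and 3.71 FPKM and turned from 0.69 to -0.99, and Cdk5 had 5.58, 4.75 and 3.89 FPKM and 17.6, 27.6 and 35.9 FPKM, higher on the deposited values only (2.24, and 0.21 with an adjusted p of 0.443). Of 10 S phase genes 8 were lower and 1 higher, and of 11 mitosis genes 7 lower and 3 higher. With equal totals 9 and 8 of them were lower and 0 were higher, beside 61.8% lower and 9.8% higher over all tested genes.

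Genes of the transcription machinery were more often lower than higher, while the 7SK RNA rose. The shares over all tested genes were 44.5% lower and 48% higher, and with equal totals 61.8% and 9.8%. Of 12 transcriptional CDKs, cyclins and P-TEFb regulators, 9 were lower and 2 higher, 1 of them Rn7sk, and 10 lower and 1 higher with equal totals. Cdk13, a kinase of the polymerase tail, went from 2.28, 2.77 and 3.55 FPKM to 0.127, 0.182 and 0.17 FPKM and its cyclin, Ccnk, from 7.47, 8.58 and 9.49 FPKM to 1.43, 1.61 and 1.63 FPKM. Of 29 RNA polymerase II and Mediator genes, 18 were lower and 9 higher on the deposited values and 21 lower and 1 higher with equal totals. Polr2a, the largest subunit of the polymerase, had 21.6, 25.8 and 48 FPKM with PBS and 2.96, 2.31 and 2.43 FPKM with NP-D@MP, with log2 fold changes of -3.12 ± 0.30 (adjusted p = 2.38e-06) and -4.95 ± 0.29 (adjusted p = 3.97e-08). Med17, a core subunit of Mediator, went from 5.59, 4.79 and 6.33 FPKM to 0, 0.319 and 0.21 FPKM. The groups do not overlap for either gene, while 9 other subunits were called higher on the deposited values.

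Splicing and chromatin genes were mostly lower. For these and the transcription factors below, the shares over all tested genes were 44.5% lower and 48% higher, then 61.8% and 9.8% with equal totals. Of 29 splicing factors, 21 were lower and 5 higher on the deposited values and 27 lower and 0 higher with equal totals, and Srsf5, an SR protein, went from 19.2, 19.9 and 13.4 FPKM to 0.287, 0.492 and 1.12 FPKM. Of 30 chromatin-modifying enzymes, 26 were lower and 3 higher on the deposited values and 30 lower with equal totals. Ep300, an acetyltransferase, had 4.16, 5.45 and 13.5 FPKM with PBS and 0.136, 0.198 and 0.436 FPKM with NP-D@MP (-2.65 and -3.89), and Kdm1a, a demethylase, 5.69, 5.7 and 8.23 and 0.464, 0.403 and 0.393 FPKM (-2.39 and -3.71). Sequence-specific transcription factors, taken by the families that the table itself gives, were 353 of the tested protein-coding genes, and 282 were lower and 50 higher on the deposited values and 310 lower and 7 higher with equal totals. In the class lower under both they were 8.29% of protein-coding genes and in the class higher under both 1.09%, against 4.97% of all tested protein-coding genes.

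Small RNA genes were mostly higher. Of 9 small nuclear RNA genes, 8 were higher and 1 lower on the deposited values and 7 higher and 1 lower with equal totals, and of 4 small nucleolar RNA genes, 4 and 3 were higher. Rnu5g, a U5 RNA of the spliceosome, had 0 reads in all 3 PBS libraries and 14.8, 22.2 and 12.1 FPKM with NP-D@MP, at least 21.8-fold higher on the deposited values and at least 4.65-fold higher with equal totals over a floor of 3 reads per library. Snord118, the U8 RNA of ribosomal RNA processing, had 0 reads with PBS and 5.08, 3.64 and 7.53 FPKM with NP-D@MP, at least 8.41-fold and 1.78-fold higher. Mir8091 went the other way, from 1.88, 3.59 and 15 FPKM to 0 reads in every NP-D@MP library, at least 2.61-fold and 12-fold lower. That bound rests on PBS replicate 3, and without that library it was 1.04-fold and 5.04-fold. These genes are short, so that few reads make a large FPKM. Over 1 kb, 3 reads were worth 0.343 to 0.381 FPKM with NP-D@MP and 0.0787 to 0.0949 FPKM with PBS. A short gene thus passed the filter on fewer reads with NP-D@MP, and Rnu5g, Snord118 and Snora17 passed through NP-D@MP libraries alone. The part of the filter in these counts was not tested.

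Ribosomal protein genes were higher and ribosome assembly genes lower on the deposited values. Of 40 cytosolic ribosomal protein genes, 39 were higher on the deposited values, and 4 higher and 2 lower with equal totals (medians 2.83 and 0.62, or 2.41 and 0.16 without PBS replicate 3). Of 19 ribosome assembly and nucleolar genes, 0 were higher and 17 lower, and 18 lower with equal totals (medians -1.16 and -2.68). Rps4x, a small subunit protein, had 148, 137 and 133 FPKM with PBS and 1228, 1662 and 1247 FPKM with NP-D@MP (3.28 and 1.05), and Rplp0, of the ribosomal stalk, 416, 366 and 519 FPKM and 3986, 5165 and 3378 FPKM (3.26 and 1.02). Nop56, a core protein of box C/D particles, went from 7.89, 6.9 and 7.95 FPKM to 1.06, 1.68 and 0.713 FPKM (-2.02 and -3.57). Ribosomal protein genes have many processed copies. Fth1 and Ftl1 do as well, and 364 of 423 processed pseudogenes were called higher on the deposited values and 22 lower (56 and 54 with equal totals), so reads of genes and copies could be split by the counting.

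Of 25 translation factors, 12 were higher and 13 lower on the deposited values and 0 higher and 15 lower with equal totals. For these and the proteasome subunits below, the shares over all tested genes were 48% higher and 44.5% lower, then 9.8% and 61.8%. Eef1a1, the elongation factor, was higher on the deposited values only, at 1176, 1186 and 1115 FPKM with PBS and 5889, 7517 and 6169.8 FPKM with NP-D@MP (2.48, 0.25 with an adjusted p of 0.253 with equal totals, and -0.98 after quantile normalization). Eif3a, a subunit of the initiation complex, fell from 14.8, 21.1 and 36.8 FPKM to 1.48, 1.21 and 0.663 FPKM (-3.50 and -5.10). Of 22 proteasome subunits, 12 were higher and 5 lower, and 18 lower with equal totals, with Psmd7, of the regulatory lid, at 17.5, 16.5 and 11.8 FPKM and 1.57, 1.68 and 2.19 FPKM (-2.52 and -4.24). Without PBS replicate 3, 9 proteasome subunits were higher and all 22 were lower with equal totals.

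Respiratory chain genes were higher on the deposited values and divided with equal totals. All 14 tested protein and ribosomal RNA genes of the mitochondrial genome were called higher on the deposited values, 6 of them also with equal totals. All 32 tested nuclear-encoded subunits were higher on the deposited values, and with equal totals 10 were higher and 7 lower. Of 7 tested mitochondrial tRNA genes, 5 were called higher on the deposited values and 2 with equal totals. Without PBS replicate 3 the equal-totals counts were 4 for the 14 genes, and 6 higher and 10 lower for the nuclear-encoded subunits. mt-Co1, a catalytic subunit of cytochrome oxidase, had 1468, 1169 and 1747 FPKM with PBS and 20906, 11496 and 9052 FPKM with NP-D@MP, where replicate 1, the library with the largest mitochondrial share, was highest. Its log2 fold change was 3.17 ± 0.30 (adjusted p = 2.02e-06) and 0.93 ± 0.29 (adjusted p = 0.0147), and -0.44 after quantile normalization; with equal totals it was 0.56 (adjusted p = 0.0396) without NP-D@MP replicate 1, and its call ended without PBS replicate 2 (0.80, adjusted p = 0.0571). mt-Rnr1, a mitochondrial ribosomal RNA, rose by 3.66 and 1.43. Of the same 14 mitochondrial genes, 3 were called with equal totals when NP-D@MP replicate 1 was left out. Atp5b, the catalytic β subunit of ATP synthase, went from 122, 106 and 89.8 FPKM to 694, 797 and 796 FPKM (2.85 and 0.62).

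Glycolysis genes were mixed. Of 19 tested, 9 were higher and 7 lower on the deposited values, and 0 higher and 11 lower with equal totals. These counts are close to the shares over all tested genes, 48% higher and 44.5% lower, then 9.8% and 61.8%. Lower under both were the glucose transporter Slc2a1 (49.2, 47.6 and 38.1 FPKM with PBS and 18.3, 12 and 15.6 FPKM with NP-D@MP) and hexokinase 2, Hk2 (15, 16.1 and 18.4 FPKM and 0.556, 0.411 and 0.809 FPKM), with log2 fold changes of -1.51 and -3.46 on the deposited values and -3.64 and -4.91 with equal totals. Pgam1, phosphoglycerate mutase, had 269.6, 262 and 283 FPKM and 1421, 1351 and 1546 FPKM, higher on the deposited values only (2.40, 0.17 with an adjusted p of 0.336 with equal totals, and -0.48 after quantile normalization).

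Ferritin and antioxidant genes split likewise, with 13 of 20 higher and 6 lower on the deposited values and 5 higher and 9 lower with equal totals. Over all tested genes 48% were higher and 44.5% lower, then 9.8% and 61.8% with equal totals. Fth1 had 17041, 15842 and 8571 FPKM with PBS and 200740, 231760 and 223977 FPKM with NP-D@MP, with log2 fold changes of 4.05 ± 0.33 (adjusted p = 8.05e-07) and 1.81 ± 0.34 (adjusted p = 0.000525), and 0 after quantile normalization, since it is the top gene of every one of these libraries. Ftl1, the light chain, went from 2599.6, 2404 and 582 FPKM to 29277, 30479 and 37718 FPKM (4.39 and 2.15, or 1.42 for the second without PBS replicate 3), and Prdx1, a peroxiredoxin, from 122, 104 and 147 FPKM to 1148, 1978 and 1396 FPKM (3.57 and 1.34). Nfe2l2, the factor NRF2 that governs such genes, fell from 13.3, 15.6 and 23.4 FPKM to 2.05, 4.2 and 2.78 FPKM (-2.20 and -4.04), and Txnrd1, thioredoxin reductase, by 2.25 and 4.15. The messenger of Nfe2l2 was thus lower under both scalings. Of the 20 genes, 13 were higher on the deposited values, but with equal totals 5 were higher and 9 lower.

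**Figure D4:**
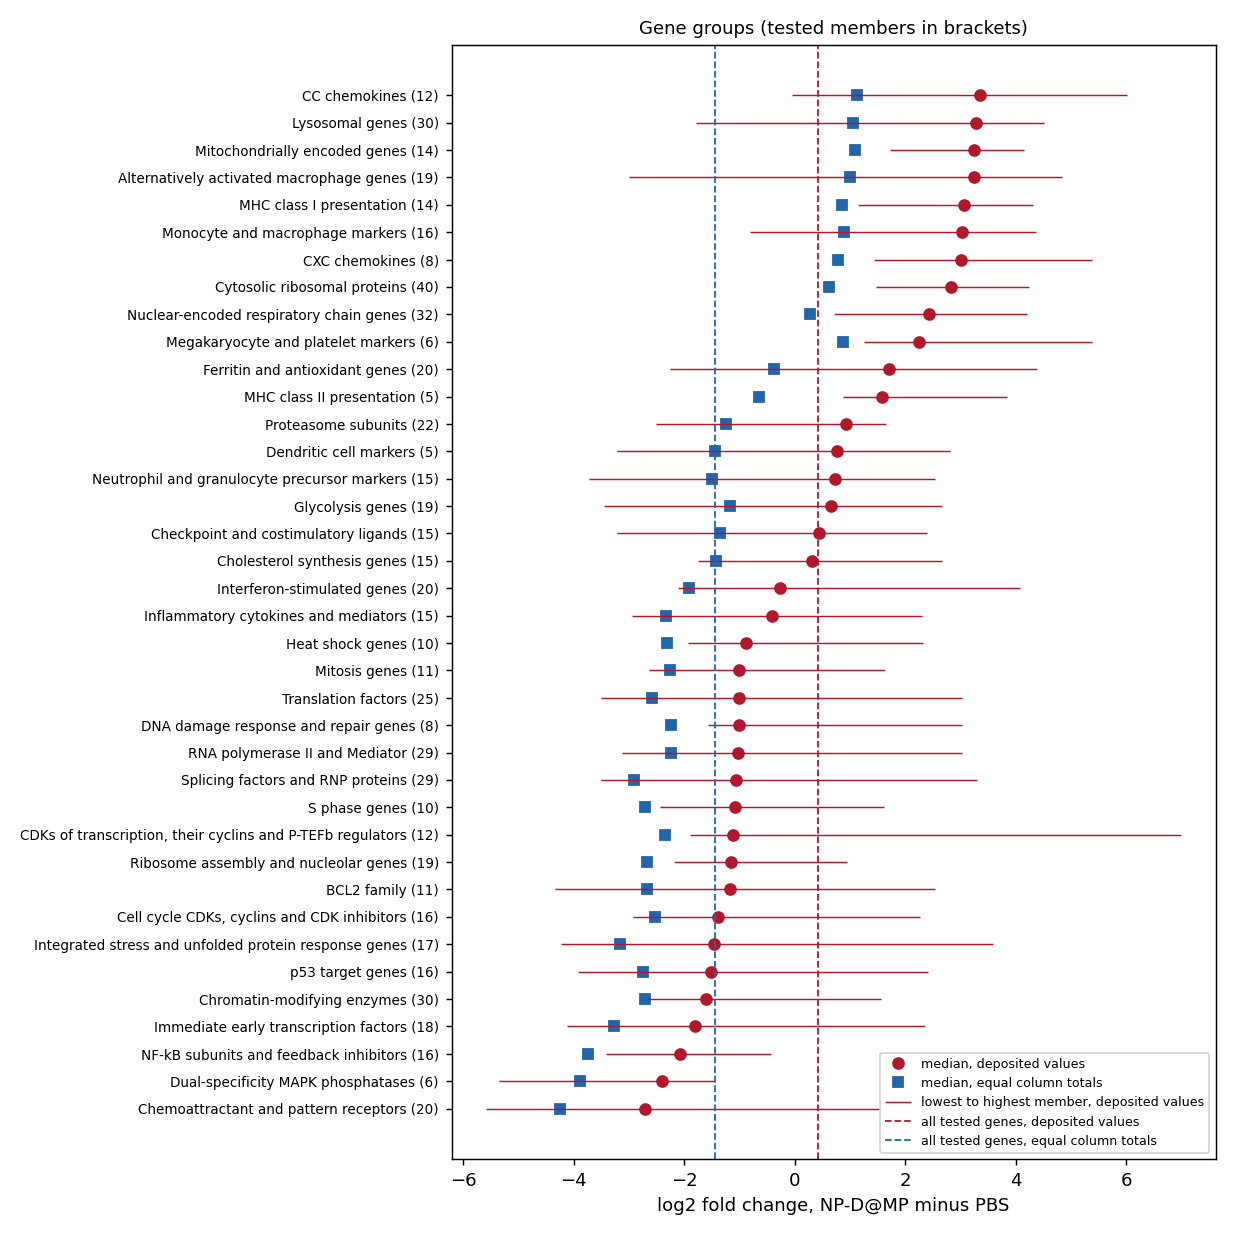
Median log2 fold change (NP-D@MP minus PBS) of each gene group with at least 5 tested members on deposited values (circles, with a line from the lowest to the highest member) and with equal column totals (squares); dashed lines are the medians over all tested genes, 0.42 and -1.44. CC chemokines (3.35) and lysosomal genes (3.29) lie highest on deposited values, and the dual-specificity phosphatases (-2.40) and chemoattractant and pattern receptors (-2.71) lowest.

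Genes that rose and genes that fell also differed in build. Protein-coding genes higher under both scalings had a median length in the table of 2563 bases, a median span on the chromosome of 12 kb and a median of 7 exons. Those lower under both had 5142 bases, 29.8 kb and 11 exons. In 4 bins of near equal size from the shortest to the longest, the median log2 fold change on the deposited values ran 1.59, 0.36, -0.83 and -1.15, and with equal totals -0.20, -1.51, -2.15 and -2.40. The filter and the pseudocount of 1 FPKM act on values already divided by length, and their part in this pattern was not tested. The motif TATAAA was in 10.6% of promoters of the genes higher under both and 6.34% of those lower under both, and the AP-1-type motif TGANTCA (both strands) in 8.22% and 4.44%, against 6.94% and 5.17% of all 5666 promoters.

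**Figure D5:**
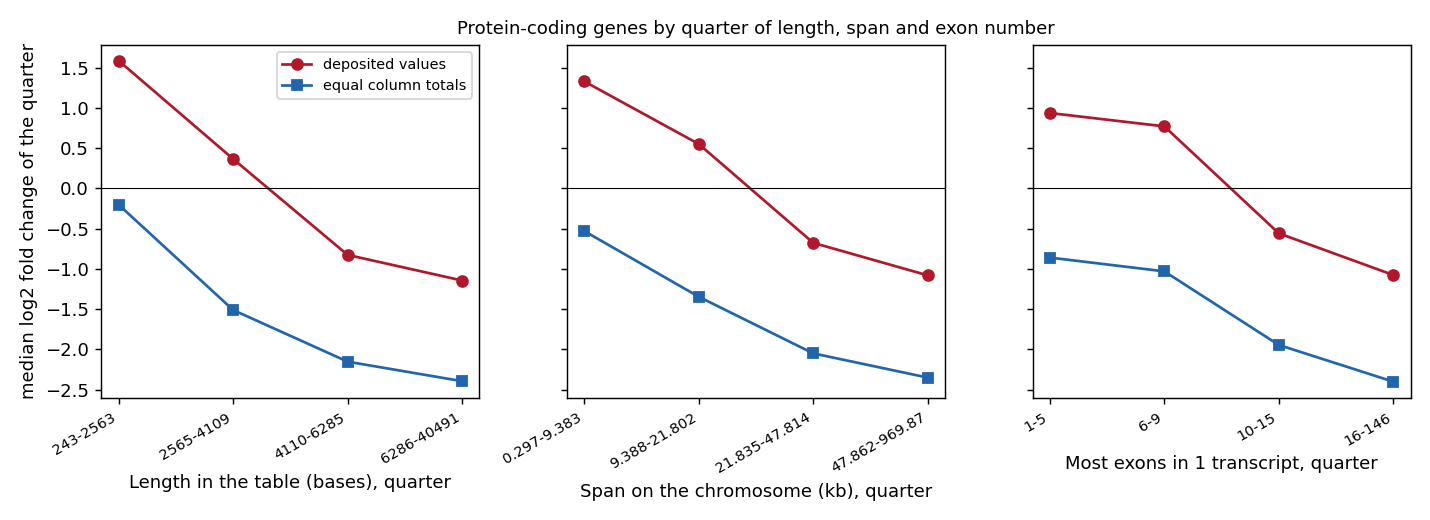
Median log2 fold change (NP-D@MP minus PBS) of protein-coding genes in 4 bins by length in the table, span on the chromosome and number of exons, on deposited values (circles) and with equal column totals (squares). Medians fall from the first to the last bin in all 3 panels and on both scales, from 1.59 to -1.15 for length on deposited values.

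The contrast between NP-D@MP and PBS was last set against that between NP-D@M and NP@M, which shares no library with it and also differs by D. The difference between the 2 contrasts was called for 0 of 7766 genes (0%) by limma under either scaling; at an unadjusted p under 0.05 there were 158 genes (2.03%) on the deposited values and 111 (1.43%) with equal totals, and the smallest adjusted p was 0.45 and 0.652. Across genes, which are not independent replicates, the log2 fold changes of the 2 contrasts had Pearson's r of 0.986 and 0.985, given as a description. Ccl12 had 6.02 here and 5.73 there, a difference of 0.28 ± 0.58 (SE). Sgk1 had -5.61 and -5.11 (-0.50 ± 0.51), Rn7sk 6.99 and 6.87 (0.12 ± 0.65), and Cd274 -0.91 and -0.40 (-0.51 ± 0.37). Larger differences were found for 4 other named genes, picked here after their values were seen. Fos, an immediate early factor, had -3.11 here and -1.31 there (-1.80 ± 0.38, adjusted p = 0.862, limma), and Il1a -2.95 and -1.17 (-1.78 ± 0.51, adjusted p = 0.9999). Dusp1, a MAP kinase phosphatase, had -1.53 and -0.33 (-1.20 ± 0.37, adjusted p = 0.9999), and mt-Co3, a cytochrome oxidase subunit, 2.33 and 3.53 (-1.20 ± 0.29, adjusted p = 0.9999). Each of these 4 differences exceeded 3 of its SEs without being called, so the missing calls do not show that the 2 contrasts are alike. NP@M replicate 2 also stood apart, with 9.11% of the table's genes at 0 against 2.87% and 2.96% in its group mates, and without it and PBS replicate 3 the difference was again called for 0 genes.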

How the data were processed

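Total RNA of mouse cells was sequenced in 4 groups of 3 libraries, and each library gave a value for 11669 genes. The authors deposited FPKM values in 1 table with the gene length in bases as another column; the file's header names no unit, which was read from the values. Per the submitters' processing notes, Bowtie 0.12.2 and the build mm8 were named, with no role given, while the table's gene coordinates equal those of GENCODE M21 (GRCm38) for 11213 genes. Value times length gave whole reads at a tolerance of 0.05 for 100% of values, so reads per library were recovered.

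Genes that reached 1 FPKM in 3 or more of the 6 libraries were tested on log2(value + 1) with limma 3.58.1 (trend, all 12 libraries in 1 fit, Benjamini-Hochberg adjustment over all 7766 genes, threshold 0.05), on the deposited values and on values rescaled to equal column totals of value times gene length. A fold change on this scale understates that of low genes. No batch is given in the labels. Named genes were the 10 in each direction with the largest change called the same way under both scalings, without overlap between groups and with a mean of at least 5 in the higher group, the 5 most abundant that turned with the scale, up to 3 per list by smallest adjusted p with members that the account turns on, small RNA genes, and 9 regulators. The members, the 45 gene lists and the tests were chosen with earlier results of these data known. Alternatives were other scalings, filters, a pseudocount of 0.1, limma without trend, the 6 libraries alone, a fold threshold, voom on the recovered reads and leaving out each library. A few genes that count in the lists are not reported here by name. Promoters came from RefSeq (GRCm38.p6), matched by symbol for 5666 of 7101 tested protein-coding genes. Python 3.11.15 (pandas 2.3.3, numpy 2.4.6, scipy 1.17.1, matplotlib 3.10.9) and R 4.3.3 were used.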

Additional observations from a re-analysis of the deposited data

How the results depend on the processing

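On the deposited values the count called higher became 761 with equal totals, and the count called lower became 1078 with a filter of 5 in 3 libraries (4111 genes tested) and 5332 with no filter (11649 genes tested). With equal totals, the count called higher became 3727 on the deposited values, 3913 with equal medians, 2727 after quantile normalization and 447 with a fold threshold of 1, and the count called lower became 1870 with the filter of 5 and 2666 after quantile normalization. Voom on recovered reads gave 3640 higher and 3315 lower, and 726 and 4773 with equal totals. Leaving out 1 library at a time gave 3528 to 3758 higher and 3327 to 3495 lower on the deposited values, 607 to 854 and 4621 to 5019 with equal totals, and 0 to 0 for the difference of contrasts. Without both PBS replicate 3 and NP@M replicate 2, an alternative chosen after seeing the data, the counts were 3773 higher and 3539 lower, and 882 and 5294 with equal totals.

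Directions that turned with equal totals were Actg1 (-1.34), C3 (-1.05), Cd14 (-1.0), Cdk1 (-0.99), Csf1r (-1.32), Cxcl1 (-0.051), Hspa5 (-0.59), Il1rn (-0.19), Lgals9 (-0.25), Mmp9 (-1.21), Rab7 (-0.46) and S100a9 (-1.16). With quantile normalization they were Actg1 (-2.18), C3 (-1.52), Cd14 (-1.76), Csf1r (-1.33), Eef1a1 (-0.98), Fth1 (0), Hspa5 (-0.85), Il1rn (-0.68), Lgals9 (-0.19), Lyz2 (-0.028), Mmp8 (-0.83), Mmp9 (-1.62), Pgam1 (-0.48), Rab7 (-0.93), S100a9 (-2.00) and mt-Co1 (-0.44). Ccl4 turned to 0.23 with equal medians, and leaving out 1 library at a time moved it between -0.95 (without PBS replicate 3) and 0.41 (without PBS replicate 2), above 0 also without PBS replicate 1 or NP-D@MP replicate 3; it was not called in any of these. The cause of these turns beyond the scale itself was not tested.

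No paired analysis was possible because the labels give no replicate numbers shared between groups. The sources name no spike-in, so the scale of total RNA per cell cannot be set, and low genes are limited by few reads: the pseudocount of 1 is above many values with NP-D@MP.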

Other observations

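Dendritic cell, heat shock, cholesterol and DNA repair genes moved in both directions. So did all tested genes, with 48% higher and 44.5% lower on the deposited values, and 9.8% and 61.8% with equal totals. Of 5 dendritic cell markers, Itgax, the integrin CD11c, rose from 66.9, 73.8 and 87.5 FPKM with PBS to 601, 480.4 and 544 FPKM with NP-D@MP (2.82 on the deposited log2 scale and 0.60 with equal totals, adjusted p = 0.00973, limma). Ccr7, which guides dendritic cells to lymph nodes, fell from 10.5, 9.32 and 8.54 FPKM to 0.173, 0 and 0.193 FPKM (-3.22 and -4.42), and its groups do not overlap. Of 10 heat shock genes 4 were called higher and 6 lower on the deposited values, and 1 higher and 8 lower with equal totals. Of 15 cholesterol synthesis genes 6 were higher and 6 lower, and 1 and 10 with equal totals, or 9 higher and 4 lower on the deposited values without PBS replicate 3. Hmgcs1, an early enzyme of that path, fell from 2.01, 2.23 and 4.05 FPKM to 0.349, 0 and 0.0277 FPKM (-1.72 and -2.74). Of 8 DNA repair genes 2 were higher and 6 lower, and 1 and 7 with equal totals.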
